A study of Mus musculus with 23 samples.

Results

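The 9 genes described here encode subunits of Polycomb repressive complex 1 (PRC1): Cbx2, Cbx6, Cbx7, Cbx8, Bmi1, Pcgf2, Ring1, Rnf2 and Phc1. Their rows were matched by symbol and are 9 of 39017 gene rows in the count tables. The 9 were listed with earlier results of these data known, so the choice was not independent of the data. Each was present on 1 row in all 23 libraries, and all 9 passed the filter on low counts in both models fitted.

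PRC1 is a chromatin complex that keeps developmental genes silent. Its catalytic core pairs Ring1 or Rnf2 (Ring1B), the E3 ligase that ubiquitinates histone H2A, with a Pcgf protein such as Bmi1 or Pcgf2 (Mel18). In canonical PRC1 a Cbx protein binds the trimethyl mark that PRC2 places on lysine 27 of histone H3, and a Phc protein joins complexes through its SAM domain. The K27M change of histone H3 is known to inhibit PRC2, so the genes that read and act on its mark are of interest in cells that carry it. In neural progenitors Bmi1 is known for supporting self-renewal, partly by repressing the Cdkn2a locus.

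The libraries came from brain cells of C57BL/6 mice in which genes had been delivered to the embryonic cortex by in utero electroporation with a piggyBac transposon, so that GFP-positive cells and their progeny could be sorted and expanded. The labels call the cells neural progenitor cells. The 15 preneoplastic libraries date from 72 h after delivery and the 8 tumour libraries from 5 to 9 months, and RNA was extracted from cell pellets and from tumours, so these stages may also differ in the kind of material. The preneoplastic groups were EV ctl, a baseline control labelled wild type (n = 2), EV-PDGFRA with Pdgfra overexpression (n = 3), and WT-AP with overexpressed wild-type histone H3.3, Trp53-/- and an Atrx shRNA (n = 4). K27M-AP carried overexpressed H3.3K27M in place of wild-type H3.3, with the same Trp53-/- and Atrx shRNA (n = 4), and K27M-APP had Pdgfra overexpression in addition (n = 2). The tumour groups were K27M-AP T (n = 3) and K27M-APP T (n = 4), with the same alleles as their preneoplastic namesakes, and K27M-P T, with H3.3K27M and Trp53-/- but no Atrx shRNA (n = 1). Trp53 was targeted with CRISPR/Cas9 in the delivered cells and H3.3 was added by overexpression, with no change to the endogenous H3.3 genes named in the labels. Whether replicate libraries stem from different animals or cultures is not stated, and a p-value here therefore covers just the spread among the libraries at hand.

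Total counts ran from 37300947 to 68642582 per library. Trp53 stood at 40.9 to 51.6 CPM (the count as a share of the scaled library size) in the 5 libraries of EV ctl and EV-PDGFRA and at 7.14 to 27.7 in 17 of the 18 libraries labelled Trp53-/-. The exception was the library labelled K27M-AP T4, with 49.4 CPM, although an edited gene can still be transcribed. Atrx stood at 184 to 300.4 CPM in the 5 control libraries and 46.0 to 163 in 16 of the 17 labelled with the shRNA, and the library labelled WT-AP 1 held 262. Pdgfra stood at 409 to 1890 CPM where it was delivered, and its highest level elsewhere was 412. Markers of neural progenitors summed to 3705 to 12227 CPM, and lymphocyte markers to at most 0.197. The 9 markers of microglia and macrophages summed to 7.08 to 18.4 CPM, most of it Csf1r (6.21 to 11.4) and Cd68 (0.712 to 6.69), while Tyrobp and C1qa were at 0 in all libraries and each of the other 5 reached at most 0.193. Preneoplastic libraries differed in 10 markers of dividing cells. These summed to 140 CPM in K27M-AP 4 against 2315 to 3231 in the other K27M-AP libraries, to 393 in EV ctl 5 against 1680 in EV ctl 4, and to 1102 in EV-PDGFRA 3 against 2441 and 2798 in the other EV-PDGFRA libraries. In bulk RNA, fewer cells that express a gene and less RNA per cell cannot be told apart.

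On a scale that allows levels to be compared between genes, CPM per kilobase of exon, Bmi1 was the most abundant of the 9 transcripts, with a median of 48.9 over the 23 libraries (31.3 to 65.0). Rnf2 followed with a median of 25.0 (17.8 to 34.0). The next 5 lay close together: Cbx6 at 7.25 (5.28 to 13.04), Phc1 at 6.36 (5.34 to 7.995), Cbx2 at 6.19 (2.26 to 12.3), Ring1 at 5.15 (3.59 to 7.29) and Cbx8 at 4.18 (2.73 to 7.43). Cbx7 and Pcgf2 were the scarcest, at 0.635 (0.350 to 1.35) and 0.546 (0.106 to 5.08). Bmi1 and Rnf2 each exceeded their paralogue among the members in all 23 libraries. Rnf2 exceeded Ring1 by 3.44 to 7.21 times, and Bmi1 exceeded Pcgf2 by 10.6 to 295 times. The Pcgf genes of variant PRC1, on the same scale, had medians of 10.4 (Pcgf3, 7.83 to 12.7), 3.25 (Pcgf6), 3.10 (Pcgf1) and 1.19 (Pcgf5), all above Pcgf2 and below Bmi1.

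**Figure D1:**
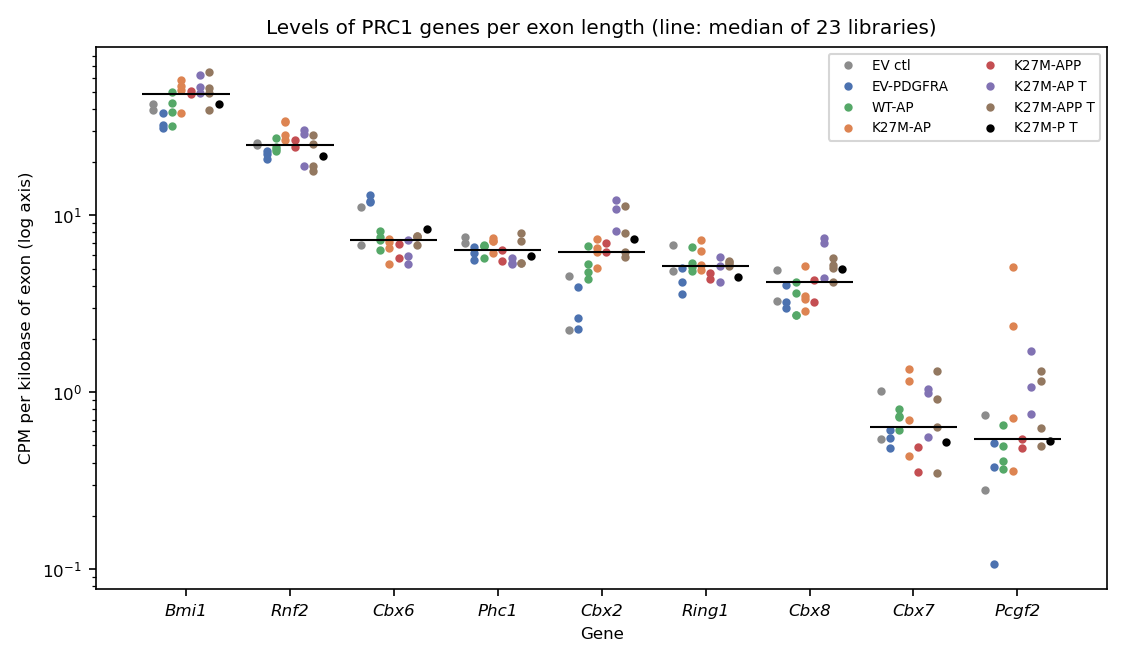
Level of each of the 9 genes in CPM per kilobase of exon (vertical log axis), 1 point per library coloured by group, with a line at the median of 23 libraries. Bmi1 and Rnf2 lie above the other genes, and Cbx7 and Pcgf2 lie lowest.

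Between groups the 9 genes differed in how far they varied. Phc1 had the narrowest range, with its highest library 1.497 times its lowest, followed by Rnf2 (1.92 times), Ring1 (2.03), Bmi1 (2.07), Cbx6 (2.47) and Cbx8 (2.72). Cbx7 spanned 3.86 times, Cbx2 5.43 times and Pcgf2 47.9 times, the last between counts of 19 and 826. In 72 tests, of 9 genes in 8 comparisons, 1 passed the threshold, an adjusted p below 0.05 in edgeR's quasi-likelihood test with Benjamini-Hochberg adjustment over all genes. This was Cbx6, which fell in K27M-APP against EV-PDGFRA. Another 10 of the 72 reached an unadjusted p below 0.05 and were not called. The levels are in TMM-scaled CPM in what follows, and differences are on the log2 scale.

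**Figure D2:**
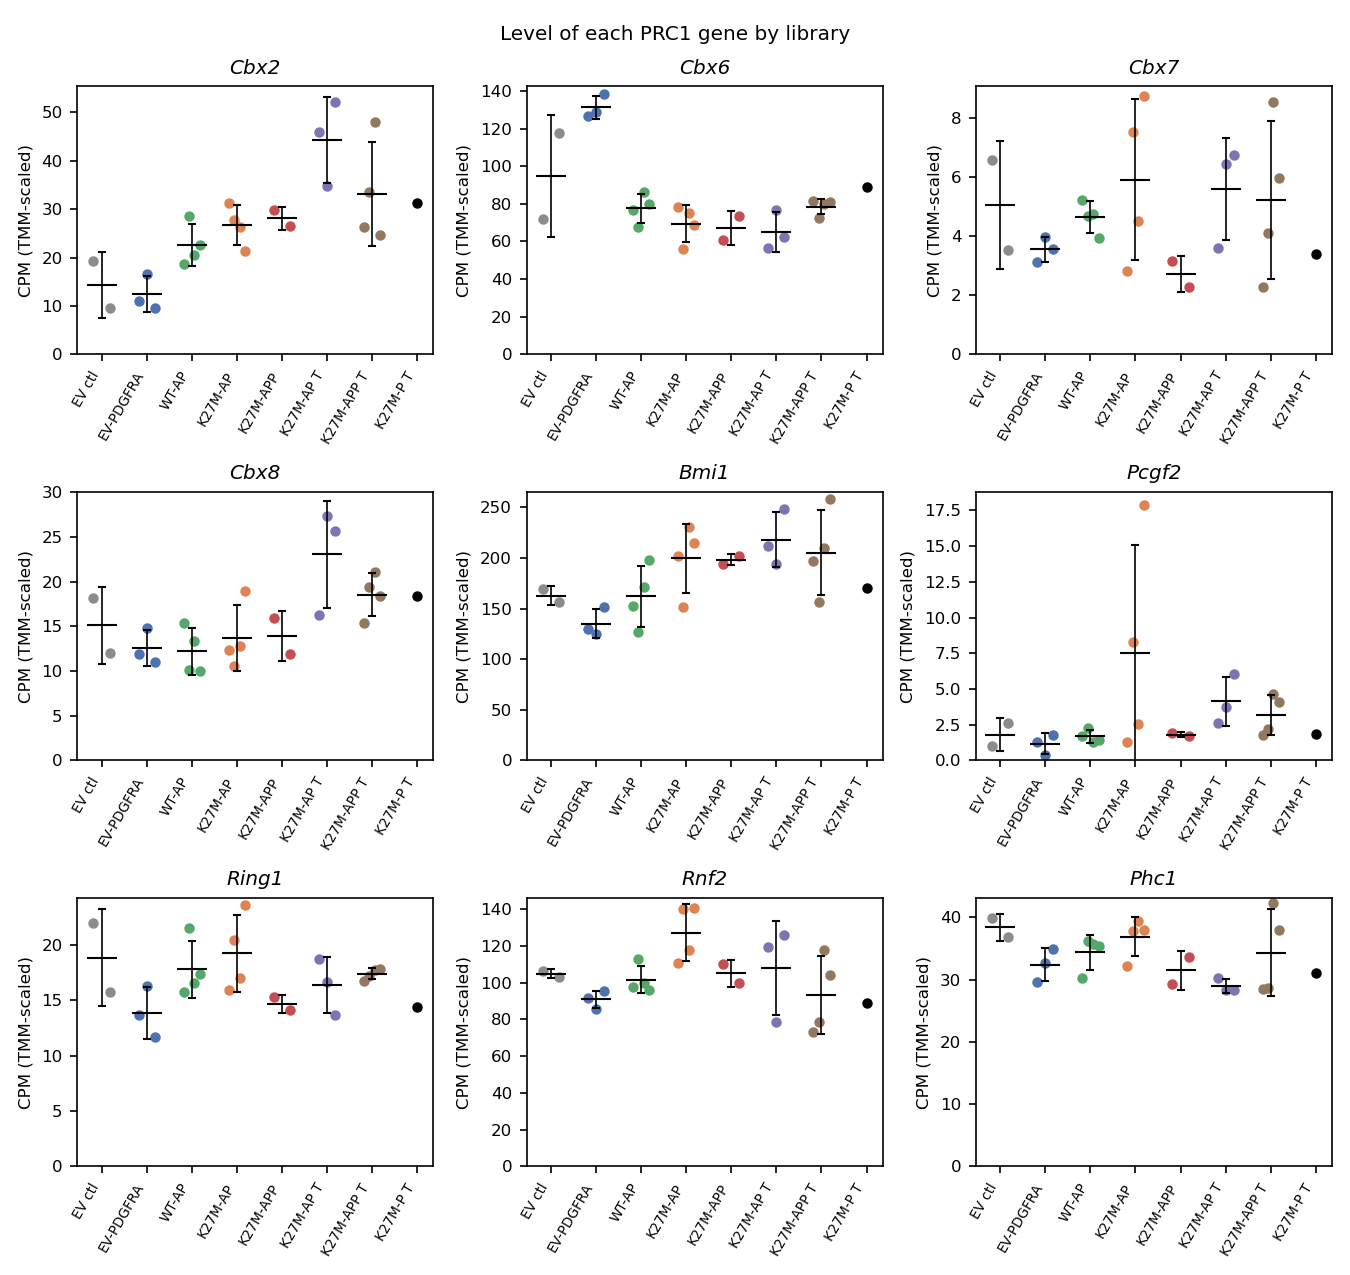
Level of each gene in TMM-scaled CPM (vertical axis from 0), 1 point per library in each of the 8 groups, with the mean and SD where a group has more than 1 library. Cbx6 is high in EV-PDGFRA and in 1 of the 2 EV ctl libraries, Cbx2 is lowest in the same libraries, and Pcgf2 is high in 2 of the 4 K27M-AP libraries.

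Among the chromodomain readers, Cbx6 (ENSMUSG00000089715, chr15:79823896-79834688, minus strand, GRCm38) was lower in every library of the other groups, with or without H3.3K27M, than in EV-PDGFRA. It stood at 127, 129 and 138 CPM in EV-PDGFRA, against 60.9 and 73.5 in K27M-APP. Both K27M-APP libraries lay below all 3 EV-PDGFRA libraries by a margin larger than the spread within either group (131 ± 6.19 CPM, SD, n = 3, and 67.2 ± 8.91, n = 2). The fall of Cbx6 was 1.95-fold (log2 fold change -0.96, SE 0.218, edgeR adjusted p = 0.0435). In this comparison 1.94% of the 20197 genes tested were called, and 1.03% were called lower. Among the members 1 of 9 is a larger share, but it rests on a single gene. The groups differ in H3.3K27M, Trp53 and the Atrx shRNA together, and these cannot be told apart.

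The Cbx6 call lies close to the threshold. It held with DESeq2 (adjusted p = 0.0022), with voom (8.63e-05), with all 23 libraries in the fit (0.0329), with a fit limited to the compared groups (0.0101) and with the replicate number as a block (0.0498). It did not hold without the filter on low counts (adjusted p = 0.0548), with the deposited table added as a term (log2 fold change -0.92, adjusted p = 0.0548) or among the libraries of the earlier table alone (-0.93, 0.0507). Leaving out 1 library ended it each time, at an adjusted p of 0.110 without EV-PDGFRA 1, 0.0835 without EV-PDGFRA 2, 0.117 without EV-PDGFRA 3, 0.392 without K27M-APP 1 and 0.236 without K27M-APP 2, with log2 fold changes from -1.11 to -0.84. Astrocyte markers summed to 554 to 1031 CPM in EV-PDGFRA and to 328 to 355 in K27M-APP, with 6 of 6 lower and none called, and oligodendrocyte precursor markers to 2657 to 2922 and 2221 to 2442, with 8 of 8 lower and none called. The precursor list includes Pdgfra, which was delivered to both groups, so its sum does not measure precursor cells alone. Pdgfra stood at 829, 1290 and 409 CPM in EV-PDGFRA and at 787 and 857 in K27M-APP. Markers of dividing cells summed to 1102 to 2798 and 3112 to 3270, with 10 of 10 higher and none called. The lowest of these, EV-PDGFRA 3, also had the highest Cbx6 level. Neuron markers summed to 21.4 to 39.0 CPM and 71.5 to 88.0, with 6 of 8 higher and none called. Most of that difference was Syt1, with a mean of 17.9 CPM in EV-PDGFRA and 67.5 in K27M-APP. Tubb3 had means of 7.57 and 8.58, and Dcx and Rbfox3 were lower in K27M-APP. Neural progenitor markers summed to 7985 to 8930 and 6449 to 6610, with 4 of 9 higher and 1 called, Prom1. Endothelial and pericyte markers summed to 2.60 to 4.91 and 6.31 to 8.45, with 3 of 5 tested higher and none called. Of these, Kdr had means of 2.02 CPM in EV-PDGFRA and 5.96 in K27M-APP. None of these 6 sums overlapped between the groups, and their part in the Cbx6 difference was not tested. Npcd shares 563 exon bases (5.31%) with Cbx6 on the same strand and stood at 20.8 to 22.5 CPM in EV-PDGFRA and 11.2 and 12.6 in K27M-APP, so reads in the shared stretch cannot be told apart.

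In the other groups Cbx6 stood at 71.7 and 118 CPM in EV ctl, so that EV ctl 5 was close to EV-PDGFRA and EV ctl 4 lay among the remaining libraries. WT-AP held 76.9, 67.8, 86.2 and 79.8 CPM, K27M-AP 78.2, 56.0, 74.9 and 68.9, and among tumours K27M-AP T held 56.4, 76.9 and 62.2, K27M-APP T 81.2, 72.3, 79.8 and 80.8, and the K27M-P T library 88.9. The 18 libraries with a delivered H3.3, wild-type or mutant, all stood at 56.0 to 88.9 CPM, below EV-PDGFRA and EV ctl 5. Ordered by mean, the groups of more than 1 library ran from K27M-AP T (65.1) through K27M-APP (67.2), K27M-AP (69.5), WT-AP (77.7), K27M-APP T (78.5) and EV ctl (94.8) to EV-PDGFRA, and EV ctl and EV-PDGFRA were the only neighbours in that order whose libraries did not overlap. Against EV ctl, EV-PDGFRA was 0.50 higher on the log2 scale (SE 0.215, adjusted p = 0.694), and the difference was 0.19 without EV ctl 4 and 0.87 without EV ctl 5. Cbx6 overlapped between mutant and wild-type H3.3, and K27M-AP minus WT-AP was -0.16 (SE 0.164, adjusted p = 1.000).

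The sequence upstream of Bmi1 is shown because it is the most abundant member. It is the 250 bases before the RefSeq gene start on GRCm38.p6, written 5′ to 3′ on the gene's strand, at chr2:18676768-18677017. Capitals mark the palindromic E-box CACGTG, which begins 215 bases before the start.
Bmi1: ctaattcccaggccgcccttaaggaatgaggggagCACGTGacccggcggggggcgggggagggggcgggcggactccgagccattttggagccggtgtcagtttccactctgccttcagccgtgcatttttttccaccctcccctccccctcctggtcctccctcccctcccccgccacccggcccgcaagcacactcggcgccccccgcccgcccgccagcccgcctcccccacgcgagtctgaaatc
Of the members, 8 had an entry in the promoter table, all but Cbx2. The RefSeq and GENCODE annotations differ in where some of these genes start: the windows of Cbx6, Cbx7, Pcgf2 and Phc1 lie wholly inside the gene as GENCODE places it, and 56 bases of that of Cbx8 do. CACGTG was present in 4 of the 8 (Bmi1, Pcgf2, Cbx8 and Cbx6), against 6.02% of 32851 promoters of the same length. The GC box GGGCGG, searched on both strands, was in 7 of the 8 against 32.7% of all promoters. The GC content ran from 49.6% for Phc1 and 59.6% for Pcgf2 to 73.6% for Ring1, against a median of 52.4%. Cbx6 had 68.0% and Bmi1 70.4%. CCAAT was in 2 (33.8% of all), the cyclic AMP response element TGACGTCA in 1, Cbx8 (1.55% of all), and the E2F motif TTTCCCGC in none (0.895% of all). A match is a description of letters and says nothing of binding.

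Cbx2 (ENSMUSG00000025577, chr11:119022962-119031270, plus strand), a reader that also compacts chromatin, ran the other way from Cbx6 without being called. It stood at 11.1, 16.7 and 9.67 CPM in EV-PDGFRA and 29.8 and 26.4 in K27M-APP. The K27M-APP libraries were both above the 3 of EV-PDGFRA, with a log2 fold change of 1.17 (SE 0.305, adjusted p = 0.0677). The value passed with DESeq2 (adjusted p = 0.00792), with voom (0.000386) and in a fit limited to both groups (0.0313), and over all alternatives the adjusted p ran from 0.000386 to 0.420. EV ctl held 19.2 and 9.62 CPM, WT-AP 18.6, 28.6, 20.5 and 22.6, and K27M-AP 31.3, 27.7, 26.4 and 21.3, so that the last 2 groups overlapped. WT-AP was 0.66 above EV ctl (SE 0.301, adjusted p = 0.494), which came to 1.24 without EV ctl 4, 0.23 without EV ctl 5 and 0.74 without the library labelled WT-AP 1.

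The highest Cbx2 levels were those of tumours, with 46.0, 34.7 and 52.2 CPM for K27M-AP T, 26.3, 33.6, 48.1 and 24.6 for K27M-APP T and 31.3 for the K27M-P T library. The 3 libraries of K27M-AP T lay above all 4 of K27M-AP. The difference was 0.71 on the log2 scale (SE 0.245) and was not called (adjusted p = 0.289). Without the library labelled K27M-AP T4, the highest, it was 0.59, and it was 0.43 among libraries of the earlier table alone and 1.12 among those of the later. Astrocyte markers summed to 150 to 210 CPM in K27M-AP T and 266 to 1693 in K27M-AP, with 6 of 6 lower (median -2.255) and none called. Endothelial and pericyte markers summed to 12.2 to 18.2 and 4.96 to 5.63, with 3 of 5 tested higher and none called. Neither sum overlapped, and their part in the Cbx2 difference was not tested. In order of mean, Cbx2 ran from EV-PDGFRA (12.5 CPM) and EV ctl (14.4) through WT-AP (22.6), K27M-AP (26.7), K27M-APP (28.1) and K27M-APP T (33.2) to K27M-AP T (44.3), with every pair of neighbours overlapping.

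**Figure D3:**
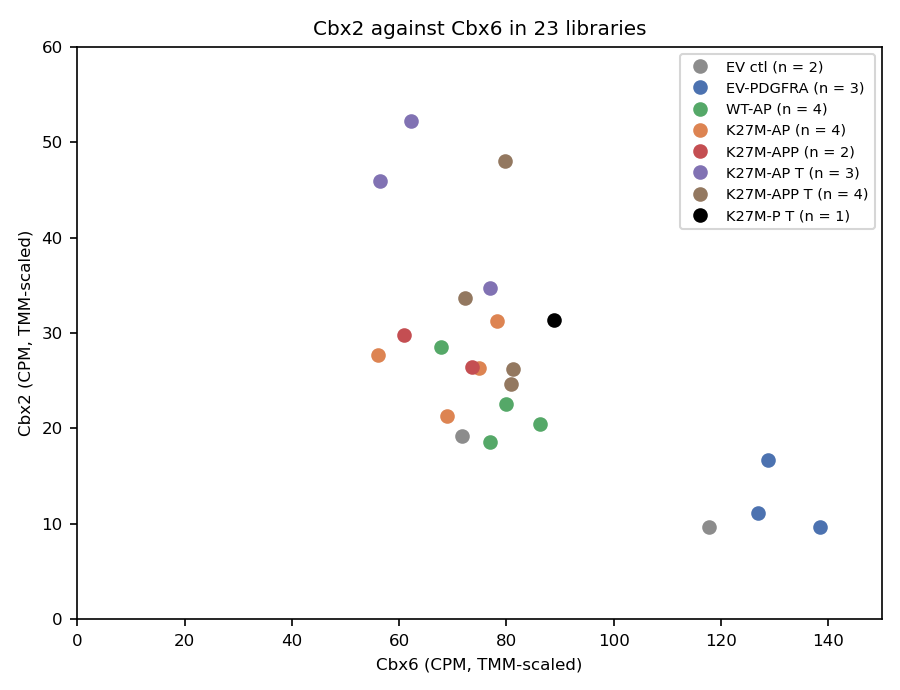
Cbx2 (vertical axis) against Cbx6 (horizontal axis), both in TMM-scaled CPM, 1 point per library coloured by group. The 3 EV-PDGFRA libraries and EV ctl 5 lie at the lower right, with Cbx6 at 118 to 138 and Cbx2 at 9.62 to 16.7, apart from the other 19 libraries.

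Cbx8 (ENSMUSG00000025578, chr11:119036305-119040969, minus strand), which lies next to Cbx2, was at 11.9, 14.8 and 11.1 CPM in EV-PDGFRA and 15.9 and 11.9 in K27M-APP. These overlapped, and so did EV ctl (18.1 and 12.1), WT-AP (15.4, 10.1, 13.4 and 10.04) and K27M-AP (12.3, 10.6, 12.9 and 18.98). Tumour levels of Cbx8 were 16.2, 27.3 and 25.7 CPM for K27M-AP T, 15.4, 19.4, 21.1 and 18.4 for K27M-APP T and 18.4 for the K27M-P T library. K27M-AP T exceeded K27M-AP with a log2 fold change of 0.74 (SE 0.247, adjusted p = 0.274), with the groups overlapping because K27M-AP 4 was above K27M-AP T1, and with the same marker sums beside it as for Cbx2. Without K27M-AP 4 the difference was 0.93.

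Cbx7 (ENSMUSG00000053411, chr15:79915807-79971119, minus strand), known as a main Cbx reader of pluripotent cells, was scarce throughout. It stood at 2.82, 7.54, 4.51 and 8.75 CPM in K27M-AP and at 3.16 and 2.29 in K27M-APP. K27M-AP 1 overlapped the K27M-APP libraries and the other 3 lay above them, and the difference of -1.09 (SE 0.409, adjusted p = 0.667) was not called. It was -0.84 without K27M-AP 4, the highest library, and -0.49 with voom, which weights the samples. The other groups spanned 3.52 to 6.58 CPM (EV ctl), 3.13 to 3.98 (EV-PDGFRA), 3.94 to 5.22 in WT-AP, and, for tumours, 3.60 to 6.75 (K27M-AP T), 2.27 to 8.53 (K27M-APP T) and 3.39 (K27M-P T). Apobec3 shares 100 exon bases (1.54%) with it on the opposite strand, which cannot be told apart without stranded counting.

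Per kilobase, the makeup of the Cbx readers differed between libraries. Cbx6 made up 58.6 to 69.1% of the sum of the 4 Cbx genes in EV-PDGFRA and 64.6% in EV ctl 5, against 39.2% in EV ctl 4. Cbx2 made up 12.0 to 18.9% in EV-PDGFRA, 26.3 to 40.5% in WT-AP, 27.8 to 41.1% in K27M-AP and 34.3 to 51.2% in K27M-AP T. The ratio of Cbx2 to Cbx6 was 0.174 to 0.323 in EV-PDGFRA, 0.204 and 0.669 in EV ctl and 0.591 to 2.09 in the other 18 libraries, and the 2 highest were K27M-AP T1 and the library labelled K27M-AP T4. This ratio was chosen after the levels were seen and was not tested.

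**Figure D4:**
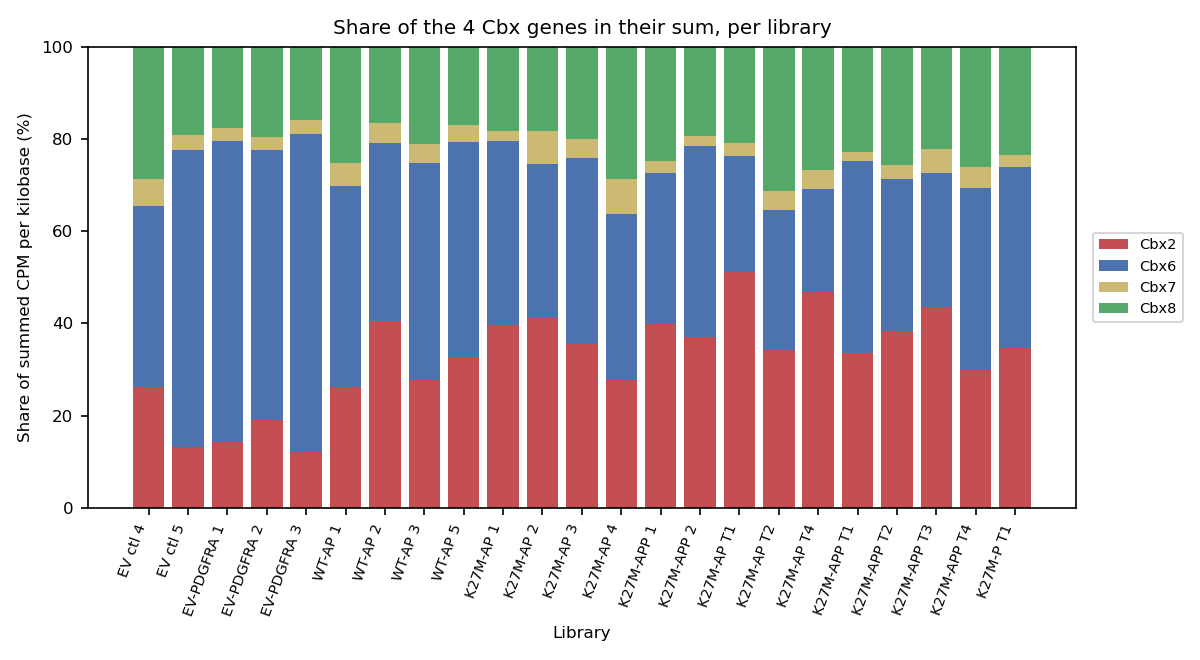
Share of each of 4 Cbx genes in their summed CPM per kilobase (vertical axis, 0 to 100%), 1 bar per library in group order. Cbx6 takes over 58% of the bar in EV-PDGFRA and EV ctl 5 and under 50% in every other library, and Cbx7 never exceeds 7.49%.

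Of the Pcgf subunits, Bmi1 (ENSMUSG00000026739, chr2:18677018-18686629, plus strand) stood at 129.5, 124 and 152 CPM in EV-PDGFRA and 194 and 202 in K27M-APP. The 2 groups did not overlap, and K27M-APP was 0.55 higher on the log2 scale (SE 0.205). The difference was not called (adjusted p = 0.203), although it passed in 2 of 14 alternatives, with voom (0.00242) and in a fit limited to both groups (0.0396), and the highest adjusted p among them was 0.642. Elsewhere Bmi1 stood at 169 and 156 CPM in EV ctl, 152, 127, 171 and 198 in WT-AP and 202, 152, 230.2 and 215 in K27M-AP. K27M-AP minus WT-AP was 0.30 (SE 0.161, adjusted p = 1.000), with overlapping libraries. Tumour levels were 212, 194 and 248 CPM for K27M-AP T, 196, 156, 209.7 and 258 for K27M-APP T and 170.1 for the K27M-P T library, and each of the first 2 groups overlapped its preneoplastic namesake.

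Pcgf2 (ENSMUSG00000018537, chr11:97688823-97700497, minus strand), the paralogue of Bmi1, varied most, and mainly within 1 group. In K27M-AP it stood at 1.26, 8.31, 2.53 and 17.9 CPM, against 1.74, 2.29, 1.30 and 1.44 in WT-AP and 1.92 and 1.70 in K27M-APP. K27M-AP 2 and K27M-AP 4 were above every other library of the series, whereas K27M-AP 1 was below all 4 WT-AP libraries. K27M-AP minus WT-AP was 2.14 on the log2 scale (SE 0.709, adjusted p = 1.000), 1.24 without K27M-AP 4, 1.25 among libraries of the earlier table alone and 2.88 among those of the later, and 0.56 with voom and its sample weights. K27M-APP minus K27M-AP was -2.01 (SE 0.920, adjusted p = 0.667), -1.29 with the replicate block, -1.12 without K27M-AP 4 and -0.24 with voom. That library also held 67.3 CPM of Dcx and 104 of Tubb3, markers of young neurons, against 2.89 to 5.13 and 11.3 to 46.3 in the other K27M-AP libraries. Its 8 neuron markers summed to 189.7 CPM against 62.4 to 106, beside the low sum of dividing markers given above. Oligodendrocyte precursor markers highest in K27M-AP 4 of all libraries were Gpr17 (1228 CPM), Sox10 (122) and Neu4 (31.4). Astrocyte markers highest there were Gfap (373 CPM), Aqp4 (199), Gja1 (315), S100b (47.4) and Aldoc (685). From these lists Pdgfra, Cspg4, Olig1, Olig2, Cacng4 and Aldh1l1 were highest in other libraries. The part of all these markers in the Pcgf2 level was not tested. The remaining levels were 0.987 and 2.61 CPM for EV ctl, 1.33, 0.374 and 1.82 in EV-PDGFRA, and, for tumours, 2.65, 3.76 and 6.02 (K27M-AP T), 1.76, 2.20, 4.62 and 4.08 (K27M-APP T) and 1.87 (K27M-P T).

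The ligases were steadier. Rnf2 (ENSMUSG00000026484, chr1:151458004-151500955, minus strand) stood at 111, 139.9, 118 and 140.4 CPM in K27M-AP and 97.8, 113, 99.97 and 96.0 in WT-AP. Only WT-AP 2 reached into the K27M-AP range, and the difference of 0.32 on the log2 scale (SE 0.110) was not called (adjusted p = 1.000). It was 0.27 without K27M-AP 4. The other groups spanned 103 to 107 CPM (EV ctl), 85.9 to 95.3 (EV-PDGFRA), 99.9 to 110.1 in K27M-APP and, for tumours, 78.4 to 126 (K27M-AP T), 73.3 to 118 (K27M-APP T) and 89.1 (K27M-P T). Trmt1l shares 158 exon bases (3.83%) with Rnf2 on the opposite strand. Ring1 (ENSMUSG00000024325, chr17:34020792-34024680, minus strand) reached an unadjusted p below 0.05 in no comparison. It spanned 15.7 to 21.9 CPM (EV ctl), 11.7 to 16.3 (EV-PDGFRA), 15.8 to 21.5 in WT-AP, 16.0 to 23.6 in K27M-AP, 14.1 to 15.3 in K27M-APP and, for tumours, 13.7 to 18.8 (K27M-AP T), 16.8 to 17.8 (K27M-APP T) and 14.4 (K27M-P T). Both ligases were highest in K27M-AP 4.

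Phc1 (ENSMUSG00000040669, chr6:122317731-122340561, minus strand), the polyhomeotic subunit, varied least. Group means lay between 29.0 ± 1.09 CPM in K27M-AP T (n = 3) and 38.4 ± 2.14 in EV ctl (n = 2). Its lowest unadjusted p was 0.0613, for K27M-AP T (30.2, 28.4 and 28.3 CPM) against K27M-AP (32.3, 37.9, 39.4 and 38.0). These libraries did not overlap, with the astrocyte and endothelial marker sums of both groups as given for Cbx2, and the difference was -0.37 on the log2 scale (SE 0.177, adjusted p = 0.433). In K27M-APP T Phc1 stood at 28.4, 28.6, 42.4 and 38.0 CPM, with T3 and T4 above T1 and T2.

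Taken by comparison, the counts of members were as follows, read against the share of all genes. In WT-AP minus EV ctl, 0 of 9 members were called and 1 had an unadjusted p below 0.05, against 0.312% and 10% of all genes, and 2 of 9 differences were positive (median -0.08). In EV-PDGFRA minus EV ctl the counts were 0 and 1, against 0% and 7.03%, and 1 of 9 differences was positive (median -0.23, all genes -0.01). These comparisons share the EV ctl libraries. In K27M-AP minus WT-AP, the contrast of mutant with wild-type H3.3 on 1 background, they were 0 and 2, against 0.0297% and 3.95%. Here 8 of 9 differences were positive (median 0.24, all genes 0.01), as were 8 of 9 in K27M-APP T minus K27M-APP (0.22, all genes 0.05).

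When Pdgfra was added to the mutant, in K27M-APP minus K27M-AP, 0 members were called and 2 had an unadjusted p below 0.05, against 0% and 5.94% of all genes, and 3 of 9 differences were positive (median -0.20, all genes -0.03). Pdgfra itself was not called here either, at a mean of 218 CPM in K27M-AP and 822 in K27M-APP. In K27M-APP minus EV-PDGFRA 1 was called and 3 had an unadjusted p below 0.05, against 1.94% and 15.5%, and 6 of 9 differences were positive (median 0.15, all genes -0.01). The libraries of these groups did not overlap for 4 of the 9, of which Cbx2, Bmi1 and Rnf2 were higher in K27M-APP and Cbx6 was lower, against 49.5% of all genes without overlap. The number of all genes called there ran from 44 without K27M-APP 1 to 5142 with voom, around 392.

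The tumour comparisons called no member. K27M-AP T minus K27M-AP gave 2 members with an unadjusted p below 0.05, against 0.0245% of all genes called and 12.2% at that p, and 3 of 9 differences were positive (median -0.11). Libraries did not overlap for 2 of 9, Cbx2 higher and Phc1 lower in tumours, against 9.93% of all genes. K27M-APP T minus K27M-APP, which shares its preneoplastic libraries with the comparisons above, gave 0 and 0, against 0% and 3.33%, and K27M-APP T minus K27M-AP T gave 0 and 0, against 0% and 2.67%, with 3 of 9 positive (median -0.09, all genes 0.02). DESeq2 and voom also called no member in any comparison other than K27M-APP minus EV-PDGFRA. Whether added Pdgfra acted differently on the K27M-AP and EV ctl backgrounds was tested by an interaction term, whose lowest p among members was 0.0952, for Cbx6 (0 of 9 below 0.05, 0 called). The term for the tumour difference on the K27M-APP against the K27M-AP background gave a lowest p of 0.102, for Phc1, again with 0 of 9 below 0.05 and 0 called.

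**Figure D5:**
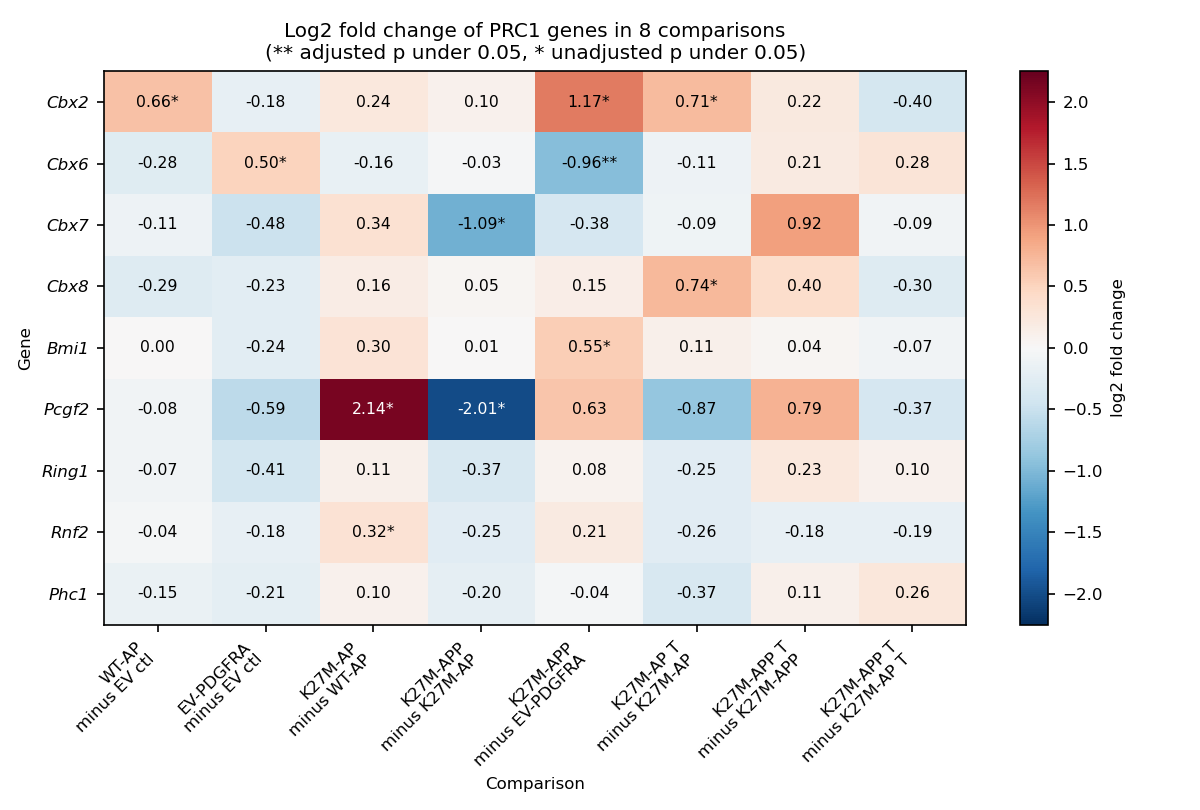
Log2 fold change of the 9 genes (rows) in the 8 comparisons (columns), coloured from blue (lower in the first group) to red (higher). A double asterisk marks the 1 called value, Cbx6 in K27M-APP minus EV-PDGFRA at -0.96, and single asterisks mark the 10 other values with an unadjusted p below 0.05.

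Other genes of the pathway were mostly not called either. A list of 8 other genes around canonical PRC1 reached beyond its subunits to MBT-domain genes. Of the 8 listed, 1 rose in K27M-APP against EV-PDGFRA and 7 did not pass, with a median of 0.12 against -0.01 over all genes. The 1 was Sfmbt1, an MBT-domain protein, at 13.9, 15.7 and 15.2 CPM in EV-PDGFRA and 30.5 and 37.8 in K27M-APP (log2 fold change 1.19, SE 0.251, adjusted p = 0.0315). Its libraries did not overlap. The call ended when any 1 library was left out (adjusted p = 0.124, 0.0767 and 0.101 without EV-PDGFRA 1, 2 and 3, and 0.162 and 0.321 without K27M-APP 1 and 2) and with all 23 libraries in the fit (0.171). Of the 2 genes long known as targets of Bmi1 or Cbx7, Cdkn2a rose in the same comparison and Cdkn2b did not pass. Cdkn2a, which encodes p16 and Arf, stood at 35.6, 26.5 and 52.1 CPM in EV-PDGFRA and 104 and 108 in K27M-APP (1.48, SE 0.347, adjusted p = 0.0486). That call too ended without any 1 library (0.156, 0.124 and 0.0628 without EV-PDGFRA 1, 2 and 3, and 0.281 and 0.301 without K27M-APP 1 and 2), without the filter on low counts (0.0502) and with all 23 libraries in the fit (0.0708). WT-AP, with wild-type H3.3, held 129, 118.7, 169 and 163 CPM of Cdkn2a, above both EV ctl libraries (31.5 and 47.9), with an adjusted p of 0.0544 that was not called.

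In the same comparison 0 of 25 variant PRC1 genes, 0 of 7 genes of histone H2A deubiquitination, 0 of 3 HP1 genes of the Cbx family and 0 of 11 PRC2 genes passed. Their medians were 0.08, 0.03, 0.04 and 0.11 on the log2 scale. In the other 7 comparisons no gene of the 6 lists was called. The highest by mean level were Skp1a among variant PRC1 genes, Foxk2 among the deubiquitination genes, Cbx5 among HP1 genes, Rbbp4 among PRC2 genes and Phc2 in the list around canonical PRC1. Ezh2, the PRC2 methyltransferase, stood at 82.6, 89.95 and 65.9 CPM in EV-PDGFRA and 119.7 and 127 in K27M-APP, without overlap and without a call (0.63, SE 0.330, adjusted p = 0.395). Of 9 neural progenitor markers 1, Prom1, rose in K27M-APP against EV-PDGFRA, and no other cell type marker was called in any of the 8 comparisons.

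For the 2 members with the largest ratio of highest to lowest group mean, Pcgf2 (6.39 times) and Cbx2 (3.55 times), the genes of most similar pattern were sought among 10748 genes by Pearson's r of log2 CPM over the 23 libraries. For Pcgf2 these were Adam23 (r = 0.87, rho = 0.81), Garnl3 (0.83, 0.91), Mycn (0.83, 0.86), Dcaf6 (0.82, 0.83) and Bbs4 (0.81, 0.75). Without K27M-AP 4 and EV-PDGFRA 2, the libraries farthest from the median of Pcgf2, r was 0.79, 0.83, 0.86, 0.82 and 0.78 in that order. For Cbx2 they were H1f0 (r = 0.92, rho = 0.91), Asb4 (0.91, 0.83), Tro (0.91, 0.87), Slc38a4 (0.90, 0.86) and Foxp1 (0.89, 0.86). Without EV ctl 5 and EV-PDGFRA 3, r was 0.87, 0.85, 0.89, 0.86 and 0.84. H1f0 encodes a linker histone and stood at 69.2 to 673 CPM. The top of so many genes is chosen for its height and the libraries share groups and scaling, so these values describe the pattern and carry no test. Among the members themselves, Cbx7 and Pcgf2 had r = 0.61 (rho = 0.55), and 0.47 without 2 libraries, and no pooled value is given for Cbx2 and Cbx6, whose libraries fall into separate clusters.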

How the data were processed

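RNA was measured in 23 mouse libraries of 8 groups, by sequencing of ribosome-depleted total RNA from both ends, per the labels' protocols. Both tables that the authors deposited hold raw counts, without normalization, and all values used derive from these deposited counts. Tools listed without a role in the submitters' processing notes are featureCounts 1.4.4, STAR 2.3.0e, Trimmomatic 0.32, GATK, Picard and SAMtools 0.1.19, with the mm10 build. The annotation, the strand setting and the handling of reads with several matches are not given in the sources used here, so overlapping genes may share reads. Columns were matched to samples by title. The 12 libraries in both tables held identical values, 22 libraries were read from the later table, K27M-P T from the earlier table, and 8 columns of other samples were not used. Positions and exon lengths are from GENCODE M21 (GRCm38), and promoters from RefSeq (GRCm38.p6). A table of protein sequences was not used here.

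The model was edgeR 4.0.16 in R 4.3.3 (scaling by trimmed mean of M-values, TMM; filterByExpr, minimum count 10, minimum total 15; quasi-likelihood F-test on group means, Benjamini-Hochberg adjustment over all genes tested, called at 0.05). One fit held the 15 preneoplastic libraries (20197 genes, 10 residual degrees of freedom) and the other both K27M preneoplastic groups with the matching tumours, 13 libraries (20373 genes, 9 residual degrees of freedom). The K27M-P T library entered no comparison, being alone in its group. The fits were tested on simulated data, in which the spread between libraries was set smaller than in these data. That test therefore does not show how the fits perform here. Alternatives were DESeq2 1.42.0 size factors and test, no filter, limma 3.58.1 voom with sample weights, a term for the table, each table alone, all 23 libraries, only the compared groups, the replicate block, and leaving out each library in turn. All 9 members are named in every comparison, list genes where called or else by highest mean, and the 5 most alike genes for 2 members, with a mean CPM of 5 or more (log2 CPM, prior count 2). Cdkn2b, Ezh2, the other Pcgf genes, single cell type and division markers and the genes that overlap members are named for their relation to a result. The lists were the 6 of Polycomb genes and 8 of cell type markers, and Auts2, on more than 1 row, was left out, as were Epop and Ezhip, which were not matched. The members and lists were chosen with earlier results of these data known.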

Additional observations from a re-analysis of the deposited data

Results flagged for a closer look

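In groups of 4 libraries, a library was marked where its gap to the nearest other library took up more of the group's range than Dixon's criterion allows. Of 27 such gene and group pairs 2 were marked, and chance marks about 1 in 20. Cbx6 was lowest in K27M-APP T2, at 72.3 CPM against 79.8 to 81.2 in the other K27M-APP T libraries (gap 0.837 of the range). Phc1 was lowest in the library labelled WT-AP 1, at 30.3 CPM against 35.4 to 36.2 in the other WT-AP libraries (0.863 of the range), and that library also held Atrx above the level of EV ctl.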

How the results depend on the processing

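The number of members called kept to within 1.5 times under 155 of 166 alternatives, nearly all of them cases of 0 called that stayed at 0. The 11 exceptions were all in K27M-APP minus EV-PDGFRA, where 1 member was called and the number changed under 11 of 14 alternatives. There it was 0 with no filter, 0 with the table term, 0 in the earlier table alone, 2 with the DESeq2 test, 3 with voom and 3 with only the compared groups, and it was 0 whichever single library was left out. The cause was not tested, beyond there being fewer samples when a library is left out. No called value reversed its sign, and in tests of members with an unadjusted p of 0.05 or over 88 of 954 values changed sign. Of 126 group means recomputed with other scalings, 0 moved by more than 1 SD. With the replicate block, 1 member, Cbx6, was called in K27M-APP minus EV-PDGFRA (adjusted p = 0.0498) and 0 in every other comparison. The numbers were not taken to pair libraries, because the labels give them no shared source and only 6 of 16 same-numbered pairs had deviations correlated over 0.1 (range -0.367 to 0.721). Whether some of them share a source is not known.

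The count of all genes called differed by more than 1.5 times between alternatives. It ran from 2 to 448 around 63 in WT-AP minus EV ctl, 0 to 101 around 0 in EV-PDGFRA minus EV ctl, 0 to 64 around 6 in K27M-AP minus WT-AP, 0 to 6 around 0 in K27M-APP minus K27M-AP, and 44 to 5142 around 392 in K27M-APP minus EV-PDGFRA. It ran from 0 to 578 around 5 in K27M-AP T minus K27M-AP, 0 to 62 around 0 in K27M-APP T minus K27M-APP and 0 to 11 around 0 in K27M-APP T minus K27M-AP T. Where groups hold 2 libraries, leaving 1 out assumes that the other varies as the remaining groups do. Pcgf2, with counts from 19, and Cbx7, with counts from 93, are the members most limited by depth.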
